A study of Mus musculus with 12 samples.

Results

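Egr1, Egr2, Egr3, Ier2, Ier3, Ier5 and Myc are immediate early genes, measured here in mouse liver with and without Pml before and after an overdose of acetaminophen (APAP). The genes were found by their symbols in the annotation of the array. Each of the 7 had exactly 1 probe set that carried a single symbol, and each of the 7 passed the filter on dim probe sets and stood among the 17052 genes tested, out of 18820 genes with such a probe set. Total RNA of liver was read on 12 Affymetrix Mouse Gene 1.1 ST arrays. All mice were females of the strain BALB/cByJ, 2.5 months old, and were either Pml wt or Pml KO, which lacks the scaffold protein of PML nuclear bodies. For each genotype there were 2 arrays of untreated liver, 2 arrays at 2 h and 2 arrays at 6 h after 300 mg/kg APAP, given i.p. in warmed PBS. Whether the untreated mice received PBS, which part of Pml was deleted, in which cells, and whether each array held a separate animal are not given in the sources used here. P-values therefore measure the spread between these samples, which may be technical.

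Immediate early genes need no new protein synthesis for their induction, because their activators already lie in the cell and are switched on by kinases such as ERK and p38. SRF with its ETS partners such as ELK1 binds CArG boxes in many of their promoters, and most of the transcripts are short-lived, so that the level follows the signal closely. EGR proteins are zinc-finger transcription factors, IER proteins are small nuclear or cytoplasmic regulators, and MYC pairs with MAX to drive ribosome production and growth. In liver such genes are known to be induced by partial hepatectomy and by toxic injury. APAP is oxidised in hepatocytes to a metabolite that depletes glutathione and damages mitochondria.

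The values are log2 of the deposited intensity. A difference is between means of 2 arrays, the value after ± is its standard error in limma's fit of all 12 arrays, and "called" means an adjusted p under 0.05 over all tested genes. The 10 hepatocyte markers stood at a log2 of 11.39 or more on every array. Across the tested genes, which are not independent, arrays within a group had a log2 correlation of 0.985 to 0.9934, and arrays of different groups 0.9154 to 0.9922. Pml stood at 7.82 to 8.46 in the 6 wt arrays and at 7.09 to 7.97 in the 6 KO arrays. The highest of these KO values came from the array labelled untreated KO replicate 2 and lay within the wt range, and KO was not called below wt in any condition (adjusted p of 0.0715 to 1). KO 6 h replicate 2 lay below its partner for every early gene except Egr3. Where a called difference of the 7 genes lost its call or moved by over 1.5 times without 1 of these arrays, that value is given too.

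Promoter sequence was at hand for 3 of the 7 genes in the RefSeq table of GRCm38.p6, which gives the bases before each transcription start. Both CArG boxes of Egr2 are shown since this motif links early genes to SRF, with the box in capitals and 10 bases on each side. Each box begins 72 bases before 1 of the 5 annotated Egr2 starts. The downstream box also begins 73 and 133 bases before further starts.
Egr2, chr10:67537484-67537513, plus strand: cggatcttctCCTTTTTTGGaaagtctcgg
Egr2, chr10:67537787-67537816, plus strand: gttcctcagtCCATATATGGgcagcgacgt
The CArG box, which is CC followed by 6 letters that are each A or T and closed by GG, read on both strands, occurred in 1.47% of the 32851 windows of 250 bases before a start. The window that holds the upstream box also held CCGGAA, the core of ETS sites, 3 times, of which a pair on opposite strands overlapped, and GGGGCGGGG, an SP motif, 1 time. Those letters occurred in 12% and 10.4% of all windows. Each window with the downstream box held TGACG, a CRE half-site found in 17.8% of windows, 2 times. The window of the first Egr2 start held CACGTG, an E-box found in 6.02%. Ier3 and Ier5 are shown whole over these 250 bases, as the 2 early genes whose wt level at 6 h was called above that at 2 h and whose promoters were in the table.
Ier3, chr17:35821463-35821712, plus strand: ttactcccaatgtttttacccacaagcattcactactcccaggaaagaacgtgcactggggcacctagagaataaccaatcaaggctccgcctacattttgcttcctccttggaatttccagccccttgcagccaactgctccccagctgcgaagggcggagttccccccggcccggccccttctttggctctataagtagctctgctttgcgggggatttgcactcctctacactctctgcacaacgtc
Ier5, chr1:155099637-155099886, minus strand: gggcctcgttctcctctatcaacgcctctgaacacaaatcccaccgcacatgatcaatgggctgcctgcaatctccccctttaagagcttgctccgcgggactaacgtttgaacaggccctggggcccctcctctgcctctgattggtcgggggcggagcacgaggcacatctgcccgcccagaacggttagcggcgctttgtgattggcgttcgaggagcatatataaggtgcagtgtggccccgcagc
Neither window held a CArG box, the ETS core, the CRE half-site or the whole CRE TGACGTCA (in 1.55% of windows), nor the E-box or the SP motif. The EGR motif GCGGGGGCG (in 2.57% of windows) and its variant written GCGTGGGCG (in 0.536%) were in neither window of this pair nor in those of Egr2, which says only that these letters are not in these windows. A match is a description of letters and was not tested as a binding site.

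Among the EGR factors, Egr1 rose by 2 h in both genotypes, stood at a like level at 6 h in wt liver, and fell from 2 h to 6 h in KO liver. The wt arrays read 8.18 and 8.03 on the log2 scale before treatment, 12.01 and 12.15 after 2 h, and 12.04 and 11.95 after 6 h. The KO arrays read 6.40 and 6.48 before treatment, 12.44 and 12.43 after 2 h, and 9.69 and 7.72 after 6 h. Every 2 h array and both wt 6 h arrays lay above every untreated array, and the 2 KO 6 h arrays lay on either side of the untreated wt arrays. In wt liver Egr1 rose by 3.98 ± 0.44 at 2 h (15.7-fold, limma adjusted p = 0.000464) and by 3.89 ± 0.44 at 6 h (adjusted p = 0.000116). In KO liver Egr1 rose by 6.00 ± 0.44 at 2 h (63.9-fold, adjusted p = 4.55e-05) and by 2.26 ± 0.44 at 6 h (adjusted p = 0.00307). With KO 6 h replicate 1 left out the 6 h rise was 1.28, and with its partner left out 3.24, called each time. At 6 h Egr1 was 9.80-fold lower in KO than in wt liver, a log2 difference of -3.29 ± 0.44 (adjusted p = 0.0041). Without KO 6 h replicate 2 that difference was -2.31 (adjusted p = 7.03e-05). Before treatment both KO arrays lay below both wt arrays, but the difference of -1.66 was not called (95% interval -2.65 to -0.68, adjusted p = 0.997).

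Egr2, whose product also controls myelination and lymphocyte activation, was near the lower quartile of the array in untreated liver and rose most in KO liver at 2 h. On the wt arrays Egr2 read 5.44 and 5.49 on the log2 scale before treatment, 7.88 and 8.35 after 2 h, and 8.59 and 8.01 after 6 h. On the KO arrays Egr2 read 5.52 and 5.39 before treatment, 10.41 and 10.75 after 2 h, and 6.64 and 5.95 after 6 h. The 2 KO arrays at 2 h were the highest of the 12, the wt arrays at 2 h and 6 h overlapped, and the KO arrays at 6 h lay between the treated wt arrays and the untreated ones. The lower quartile of the arrays was 5.38 to 5.61 on the log2 scale, and the files give no detection call. Egr2 rose by 2.65 ± 0.25 in wt liver at 2 h (adjusted p = 0.000196) and by 5.13 ± 0.25 in KO liver (35.0-fold, adjusted p = 3.95e-06). At 2 h KO stood above wt by 2.47 ± 0.25 (adjusted p = 0.00366), a call that ended without wt 2 h replicate 1 (2.23, adjusted p = 0.0507). At 6 h the rise was 2.84 ± 0.25 in wt liver (adjusted p = 3.17e-05) and 0.84 ± 0.25 in KO liver (adjusted p = 0.0259). The KO rise at 6 h lost its call without either untreated KO array or without KO 6 h replicate 1 (adjusted p of 0.0704 to 0.205), and was 0.49 without the latter. KO then stood 4.02-fold below wt at 6 h, at -2.01 ± 0.25 (adjusted p = 0.00307), and at -1.66 without KO 6 h replicate 2 (adjusted p = 0.0229).

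Egr3, the close relative of Egr2, stayed within a narrow range. Egr3 read 6.00 and 5.86 on the wt arrays before treatment, 6.24 and 6.15 after 2 h, and 6.36 and 6.01 after 6 h. The KO values of Egr3 were 6.06 and 5.85 before treatment, 6.20 and 6.24 after 2 h, and 5.68 and 5.78 after 6 h. The 2 h arrays of both genotypes lay above all 4 untreated arrays, and the KO 6 h arrays were the lowest of the 12. None of the 4 differences from untreated liver was called in limma, none of them had an unadjusted p under 0.05, and they ran from -0.23 to 0.27 with 95% intervals between -0.51 and 0.56. The fall from 2 h to 6 h in KO liver, -0.49 ± 0.13, was called (adjusted p = 0.0169). That call ended without KO 2 h replicate 2 or KO 6 h replicate 1 (adjusted p = 0.0726 and 0.0803). At 6 h KO minus wt was -0.45 ± 0.13 (adjusted p = 0.0565).

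Ier2, a small nuclear protein of the IER family, rose at 2 h in both genotypes and fell from 2 h to 6 h in KO liver. For Ier2 the wt arrays gave 6.56 and 6.33 on the log2 scale before treatment, 9.30 and 9.59 after 2 h, and 9.23 and 8.84 after 6 h. For Ier2 the KO arrays gave 6.30 and 6.65 before treatment, 10.25 and 10.34 after 2 h, and 6.98 and 6.30 after 6 h. Of the KO 6 h arrays 1 lay above all 4 untreated arrays and the other level with the lowest of them, whereas the wt 6 h arrays stayed more than 2 log2 units above them. Ier2 rose by 3.0 ± 0.22 in wt (adjusted p = 5.27e-05) and by 3.82 ± 0.22 in KO liver at 2 h (14.1-fold, adjusted p = 1.38e-05). At 6 h it was 2.59 ± 0.22 above untreated in wt liver (adjusted p = 2.6e-05). In KO liver the difference at 6 h was 0.17 and not called (95% interval -0.33 to 0.66, adjusted p = 0.601), at -0.17 without KO 6 h replicate 1 and 0.51 without replicate 2, not called either time. KO stood 5.26-fold below wt at 6 h, at -2.39 ± 0.22 (adjusted p = 0.000613), and at -2.05 without KO 6 h replicate 2 (adjusted p = 0.00331). At 2 h KO minus wt was 0.85 ± 0.22 and was not called (95% interval 0.36 to 1.35, adjusted p = 0.0709).

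Ier3, also known as IEX-1, is a regulator of cell survival and of ERK signalling and rose in stages in wt liver. Ier3 on the wt arrays read 5.33 and 5.24 on the log2 scale before treatment, 7.38 and 7.50 after 2 h, and 9.92 and 9.43 after 6 h. Ier3 on the KO arrays read 5.46 and 5.35 before treatment, 7.93 and 8.41 after 2 h, and 8.97 and 7.25 after 6 h. The wt 6 h arrays were the highest of the 12, and the 2 KO 6 h arrays lay on either side of the KO 2 h arrays. Ier3 rose by 2.15 ± 0.42 in wt liver at 2 h (adjusted p = 0.00841) and by 4.39 ± 0.42 at 6 h (21.0-fold, adjusted p = 4.64e-05). The 2 h call ended without untreated wt replicate 2 or either wt 2 h array (adjusted p of 0.0528 to 0.0591). In KO liver Ier3 rose by 2.77 ± 0.42 at 2 h (adjusted p = 0.00125) and by 2.70 ± 0.42 at 6 h (adjusted p = 0.000777), the latter 1.84 without KO 6 h replicate 1 and 3.56 without replicate 2 and called each time. At 6 h KO stood below wt by a log2 difference of -1.57 ± 0.42 (adjusted p = 0.0449). This call ended without either wt 6 h array or KO 6 h replicate 2 (adjusted p of 0.0611 to 0.252), and the value was -0.71 without the latter and -2.43 without KO 6 h replicate 1.

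Ier5, known as an activator of heat shock factor 1 through protein phosphatase 2A, differed from the other risers in that wt liver showed no called change at 2 h. The wt values of Ier5 were 6.44 and 6.18 on the log2 scale before treatment, 6.32 and 6.48 after 2 h, and 8.87 and 9.18 after 6 h. The KO values of Ier5 were 6.30 and 6.39 before treatment, 7.66 and 7.51 after 2 h, and 8.31 and 6.92 after 6 h. The wt 2 h arrays overlapped the untreated arrays, the KO 2 h arrays lay above them, and the wt 6 h arrays were the highest. The wt difference at 2 h was 0.09 (95% interval -0.65 to 0.83, adjusted p = 0.898), and at 6 h Ier5 rose by 2.72 ± 0.33 (6.58-fold, adjusted p = 0.000169). In KO liver it rose by 1.24 ± 0.33 at 2 h (adjusted p = 0.0176) and by 1.27 ± 0.33 at 6 h (adjusted p = 0.014). Both KO calls ended without either untreated KO array, and that at 2 h also without KO 2 h replicate 1 (adjusted p of 0.0541 to 0.0795), while the 6 h value was 0.58 without KO 6 h replicate 1 and 1.97 without replicate 2. KO minus wt was 1.19 ± 0.33 at 2 h (95% interval 0.45 to 1.92, adjusted p = 0.0807). At 6 h Ier5 was lower in KO by a log2 difference of -1.41 ± 0.33 (adjusted p = 0.0299). This call ended without either wt 6 h array or KO 6 h replicate 2 (adjusted p of 0.0783 to 0.123), and the value was -0.72 without the latter.

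Myc, the growth-promoting transcription factor, rose in 2 steps in wt liver and had an uneven start in KO liver. Myc on the wt arrays read 6.33 and 6.88 on the log2 scale before treatment, 8.23 and 8.33 after 2 h, and 11.33 and 11.04 after 6 h. Myc on the KO arrays read 8.09 and 9.36 before treatment, 10.62 and 10.75 after 2 h, and 10.01 and 8.66 after 6 h. Both untreated KO arrays lay above both untreated wt arrays and took in the wt 2 h arrays, and the KO 6 h arrays overlapped the untreated KO arrays. The higher of the untreated KO values came from the array labelled untreated KO replicate 2, whose Pml lay in the wt range. The untreated difference of 2.12 ± 0.44 was not called (95% interval 1.14 to 3.10, adjusted p = 0.645), and it was 1.48 without that array. In wt liver Myc rose by 1.67 ± 0.44 at 2 h (adjusted p = 0.0333), a call that ended without any 1 of its 4 arrays (adjusted p of 0.0811 to 0.166). By 6 h it had risen by 4.58 ± 0.44 (adjusted p = 4.9e-05). In KO liver Myc rose by 1.95 ± 0.44 at 2 h (adjusted p = 0.00814), or by 2.59 without the array labelled untreated KO replicate 2 (adjusted p = 0.00689), and by 1.32 without untreated KO replicate 1 (adjusted p = 0.0623). The KO difference at 6 h was 0.61 and not called (95% interval -0.37 to 1.59, adjusted p = 0.316). It turned to -0.03 with untreated KO replicate 1 left out and to -0.07 with KO 6 h replicate 1 left out, and was called at 1.28 without KO 6 h replicate 2 (adjusted p = 0.0432). Without the array labelled untreated KO replicate 2 it was 1.25 (adjusted p = 0.0708).

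**Figure D1:**
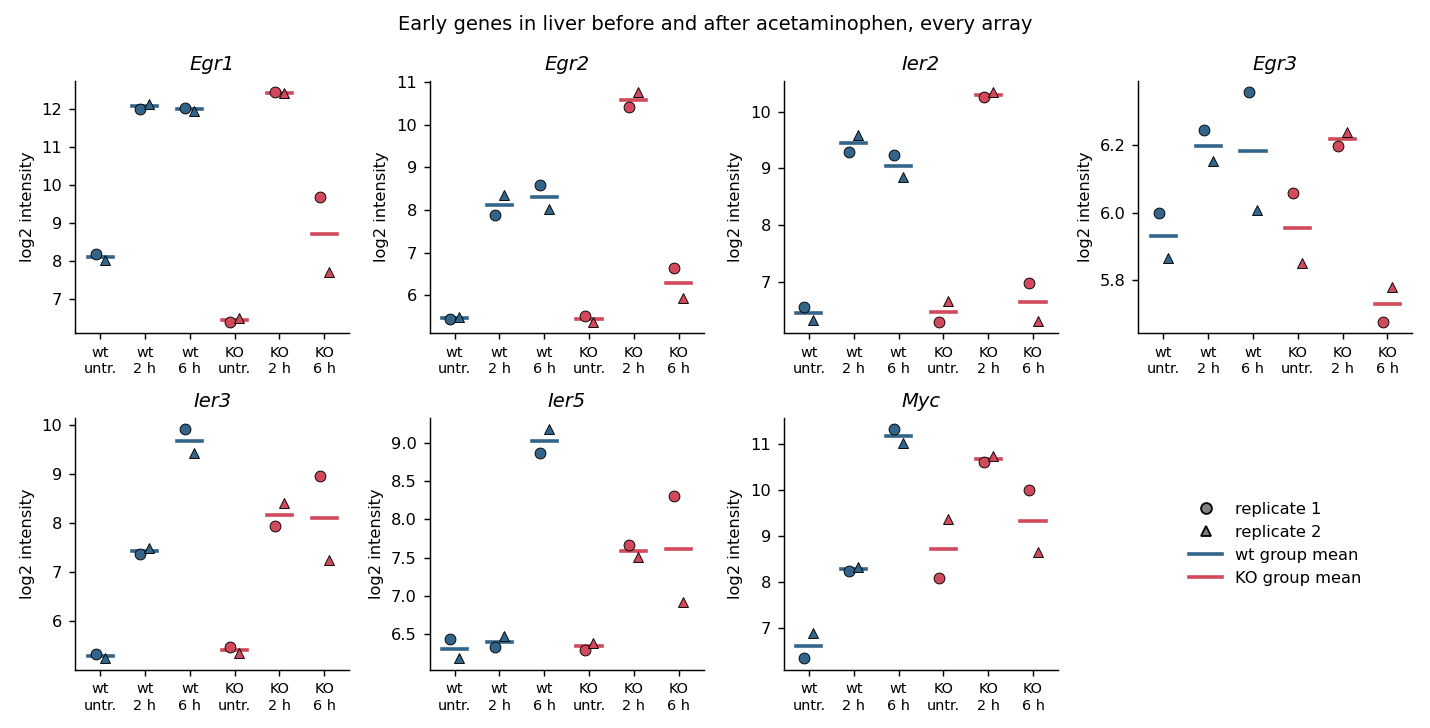
Log2 intensity of each of the 7 genes on every array, by genotype (wt, KO) and condition (untreated, 2 h, 6 h after APAP), with circles for replicate 1, triangles for replicate 2 and a bar for the group mean. Each panel has its own vertical axis, which does not start at 0; Egr1 spans 6.40 to 12.44 and Egr3 5.68 to 6.36.

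Set against untreated liver of the same genotype, 6 of the early genes rose in at least 1 genotype and time, Egr3 was called in none of the 4 comparisons, and none of the 7 was called lower. In wt liver at 2 h, 5 of 7 were called higher, where 6.53% of all tested genes were called higher and 6.17% lower, and the median difference of the 7 was 2.15 against 0.02 over all genes. At 6 h in wt liver 6 of 7 were called higher, against 16.5% of all genes called higher and 22% lower, with a median of 2.84 against -0.05. In KO liver 6 of 7 were called higher at 2 h (10.6% of all genes higher and 20.8% lower, median 2.77 against -0.06) and 4 of 7 at 6 h (15.8% of all genes higher and 19.1% lower, median 0.84 against -0.05). Leaving out 1 array at a time gave 3 to 4 calls for wt at 2 h, with 3 without untreated wt replicate 2 or either wt 2 h array, 6 to 7 for wt at 6 h and 4 to 6 for KO at 2 h. For KO at 6 h it gave 2 to 5, with 2 without either untreated KO array and 5 without KO 6 h replicate 2. These comparisons share the untreated arrays within each genotype. In whole liver, fewer cells of a type and less RNA per cell cannot be told apart.

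**Figure D2:**
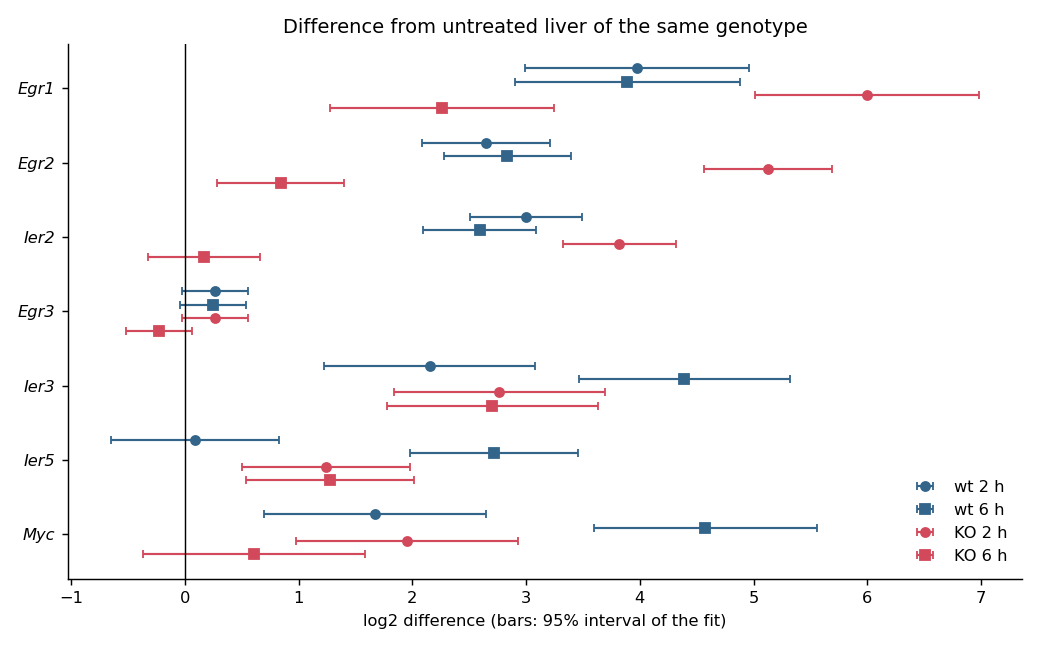
Log2 difference from untreated liver of the same genotype for each gene, as the limma estimate with its 95% interval, for wt (blue) and KO (red) at 2 h (circles) and 6 h (squares). The KO 6 h square of each gene lies left of its wt 6 h square, and all 4 Egr3 intervals include 0.

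From 2 h to 6 h the early genes split in wt liver, and most of them fell in KO liver. In wt liver Ier3, Ier5 and Myc rose further, by 2.24 ± 0.42, 2.63 ± 0.33 and 2.90 ± 0.44 (adjusted p = 0.00386, 0.000612 and 0.00144). Those 3 of 7 compare with 10.9% of all genes called higher and 16.8% lower, and they were called with each array left out in turn. The other 4 were not called, with differences of -0.08 for Egr1 (95% interval -1.07 to 0.90), 0.19 for Egr2 (-0.37 to 0.75), -0.02 for Egr3 (-0.31 to 0.27) and -0.41 for Ier2 (-0.90 to 0.09). In KO liver 5 of 7 fell, where 12.6% of all genes were called lower and 19.1% higher, and 3 of 7 without KO 2 h replicate 2. Egr2 fell by 4.29 ± 0.25 (adjusted p = 1.71e-05), Egr1 fell by 3.74 ± 0.44 (adjusted p = 0.000304) and Ier2 fell by 3.65 ± 0.22 (adjusted p = 2.15e-05). Myc fell by 1.34 ± 0.44 (adjusted p = 0.0403), a call that ended without either KO 2 h array or without KO 6 h replicate 2 (adjusted p of 0.0963 to 0.287), and was -0.67 without the latter and -2.02 without KO 6 h replicate 1. Ier3 and Ier5 differed by -0.06 and 0.03 and took opposite signs with the 2 KO 6 h arrays. Without replicate 2 both were called higher at 6 h, by 0.80 and 0.72 (adjusted p = 0.0352 and 0.0157), and without replicate 1 both were called lower, by -0.92 and -0.67 (adjusted p = 0.0178 and 0.0195).

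Tested directly, the step from 2 h to 6 h was lower in KO than in wt liver for 6 of the 7, where 2.06% of all genes were called lower and 4.97% higher in that test. Egr2 differed by -4.48 ± 0.36 (adjusted p = 0.000802) and Ier2 by -3.25 ± 0.32 (adjusted p = 0.00271), and both were called with each array left out in turn. Egr1 differed by -3.65 ± 0.63 (adjusted p = 0.0177), Myc by -4.25 ± 0.62 (adjusted p = 0.0123), Ier5 by -2.60 ± 0.47 (adjusted p = 0.0202) and Ier3 by -2.30 ± 0.59 (adjusted p = 0.0459). Egr3, at -0.47 ± 0.18, was not called (95% interval -0.88 to -0.06, adjusted p = 0.14). The count was 2 of 7 without wt 6 h replicate 1 or wt 2 h replicate 2, 3 of 7 without wt 2 h replicate 1 and 5 of 7 without KO 6 h replicate 2. Of the 4 calls lost with other arrays, Egr1 ended without either wt 2 h array or wt 6 h replicate 1 (adjusted p of 0.0548 to 0.0799). Myc ended without wt 2 h replicate 2 or wt 6 h replicate 1 (0.0642 and 0.0544), and Ier5 without either wt 2 h array, KO 2 h replicate 1 or wt 6 h replicate 1 (0.0543 to 0.083). Ier3 ended without any 1 of 7 of its 8 arrays, the exception being KO 6 h replicate 1 (0.0508 to 0.159), and was -1.44 without KO 6 h replicate 2.

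Between genotypes within a condition, KO liver stood above wt for part of the early genes at 2 h and below wt for nearly all of them at 6 h. In untreated liver 0 of 7 were called in limma, 2 of 7 (Egr1 lower, Myc higher) had an unadjusted p under 0.05, and 0.00586% of all genes were called. At 2 h Egr2 and Myc were called higher, 2 of 7 against 0.411% of all genes called higher and 1.6% lower. Myc stood above wt by 2.40 ± 0.44 (adjusted p = 0.0323), a call that ended without any 1 of its 4 arrays (adjusted p of 0.0504 to 0.195), so that 0 or 1 of the 7 remained with 1 array left out. The differences at 2 h for Egr1 and Ier3 were 0.36 (95% interval -0.63 to 1.34) and 0.73 (-0.19 to 1.66), and that for Egr3 was 0.02 (-0.27 to 0.31). At 6 h 6 of 7 were called lower in KO, against 4.93% of all genes called lower and 4.09% higher, and the median of the 7 was -1.85 against 0.01 over all genes. Myc contributed -1.85 ± 0.44 (adjusted p = 0.0308), which ended as a call without either wt 6 h array or KO 6 h replicate 2 (adjusted p of 0.058 to 0.188) and was -1.17 without the latter. Without KO 6 h replicate 2, and equally without wt 6 h replicate 1, 3 of the 7 remained called, and they were Egr1, Egr2 and Ier2 each time. Without wt 6 h replicate 2 these 3 and Egr3 were called.

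**Figure D3:**
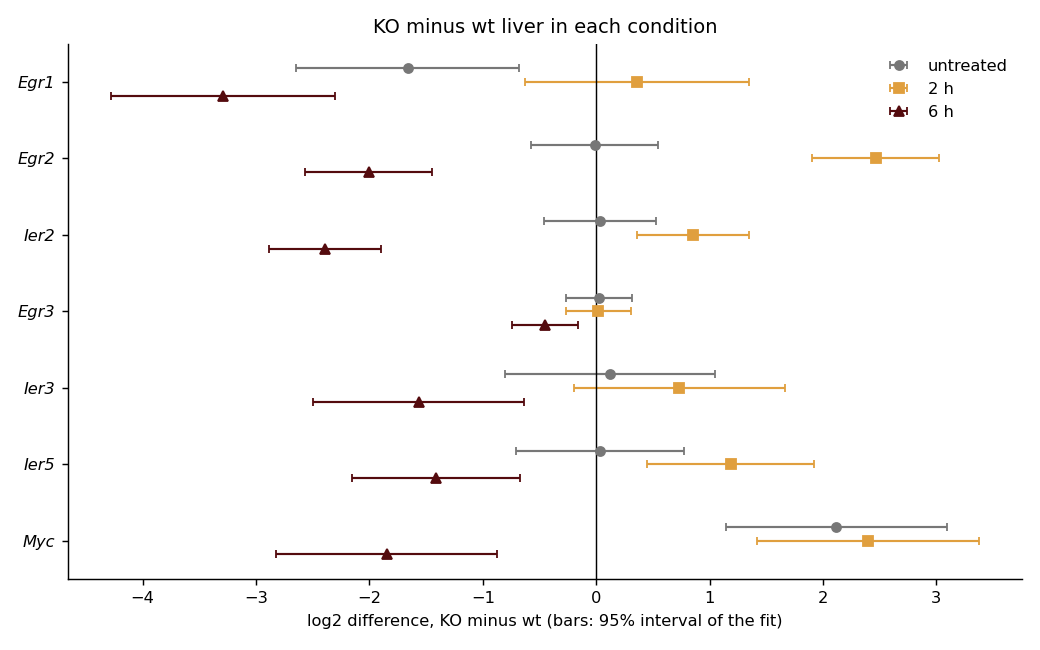
Log2 difference of KO minus wt liver for each gene, as the limma estimate with its 95% interval, for untreated liver (grey circles), 2 h (orange squares) and 6 h after APAP (dark triangles). All 7 triangles lie left of 0, from -0.45 for Egr3 to -3.29 for Egr1, and the untreated circles lie away from 0 for Egr1 and Myc.

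The change from untreated liver also differed between genotypes at 6 h for part of the set. The response at 6 h, taken as KO minus wt, was called lower for 3 of 7, against 0.399% of all genes called lower and 0.088% higher. Myc differed by -3.97 ± 0.62 (adjusted p = 0.0262), Ier2 by -2.43 ± 0.32 (adjusted p = 0.0112) and Egr2 by -2.0 ± 0.36 (adjusted p = 0.0451). For Myc the higher untreated KO level enters this value with its sign reversed, and without the array labelled untreated KO replicate 2 it was -3.33 (adjusted p = 0.0721). For Egr1 the lower untreated KO level enters it too, and its difference of -1.63 was not called (95% interval -3.02 to -0.24, adjusted p = 0.24). Egr1 was called at -2.61 without KO 6 h replicate 1 (adjusted p = 0.000174) and stood at -0.65 without replicate 2 (adjusted p = 0.185). Ier3 and Ier5, at -1.69 and -1.45 with all arrays and not called, likewise were called at -2.55 and -2.14 without replicate 1 and stood at -0.83 and -0.75 without replicate 2. The count was 0 of 7 without the array labelled untreated KO replicate 2 or untreated wt replicate 2, 1 of 7 without untreated wt replicate 1, wt 6 h replicate 1 or KO 6 h replicate 2, and 6 of 7 without KO 6 h replicate 1. Myc also lost its call without either untreated wt array, wt 6 h replicate 1 or KO 6 h replicate 2 (adjusted p of 0.0529 to 0.11), and Ier2 without untreated wt replicate 2 or the array labelled untreated KO replicate 2 (0.055 and 0.0537). Egr2 lost it without any 1 of 6 arrays, the exceptions being wt 6 h replicate 2 and KO 6 h replicate 1 (0.0991 to 0.149). At 2 h 0 of 7 were called in limma and 4 of 7 had an unadjusted p under 0.05, where 0.0293% of all genes were called. Egr2 came closest, at 2.48 ± 0.36 (adjusted p = 0.0525), followed by Egr1 at 2.02 ± 0.63 (adjusted p = 0.223).

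Markers of some other cell types differed between genotypes at 6 h, where 4.93% of all genes were called lower and 4.09% higher. The summed intensity of 10 neutrophil markers tested of 12 was 511 to 539 in untreated wt liver, 516 to 536 in untreated KO liver, 2209 to 4483 in wt liver at 6 h and 562 to 699 in KO liver at 6 h. In wt liver 8 of the 10 rose and 1 fell at 6 h, and 7 of the 10 were called lower in KO than in wt liver. At 2 h the sums were 618 to 621 in wt and 530 to 907 in KO liver, and 0 of 10 were called against untreated liver in either genotype in limma. The 5 bile duct markers tested of 6 summed to 768 to 1041 in wt and 429 to 876 in KO liver at 6 h, with 3 called lower in KO. The 4 erythroid markers tested of 5 summed to 1184 to 1906 in wt and to 348 on both arrays in KO liver, with 2 called lower. Against untreated wt liver the erythroid markers went both ways at 6 h, with 2 higher and 1 lower. Such sums follow the brightest gene of a list. Alas2 reached a log2 of 10.63 and Klf1 5.95, and in the bile duct list Sox9 reached 9.6 and Epcam 6.56. The 11 Kupffer cell and macrophage markers tested of 12 summed to 4888 to 5498 in wt and 5634 to 6124 in KO liver at 6 h, with 1 called higher and 0 lower. At 6 h 0 of 6 lymphocyte and NK and 0 of 9 stellate and fibroblast markers were called between genotypes. Likewise 0 of 3 fat and 0 of 3 pancreas markers were called. Of 8 sinusoidal endothelium and 10 hepatocyte markers, 1 each was called lower in KO liver. The lowest neutrophil markers, Mmp8 and Retnlg, went down to a log2 of 3.54 and 4.12. The part of these cell types in the differences of the early genes was not tested.

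The other genes of the pathways are read against the same shares of all genes, which in wt liver were 6.53% higher with 6.17% lower after 2 h and 16.5% with 22% after 6 h. In KO liver these shares were 10.6% with 20.8% after 2 h and 15.8% with 19.1% after 6 h. For KO against wt liver they were 0.411% with 1.6% at 2 h and 4.09% with 4.93% at 6 h. The list of ERK and SRF input upstream of the early genes also held the JNK genes Mapk8 and Mapk9 and the p38 gene Mapk14. Of its 18 genes tested, 1 was called higher in wt and 2 in KO liver at 2 h. The 1 in wt liver was Mapk8, by 0.36 ± 0.10 (adjusted p = 0.0399). At 6 h 6 rose and 3 fell in wt, and 5 rose and 1 fell in KO liver. Srf, the factor that binds CArG boxes, rose by 2.06 ± 0.30 in wt liver at 6 h (adjusted p = 0.000464) and by 1.72 ± 0.30 in KO liver at 2 h (adjusted p = 0.00245). It stood below wt in KO liver at 6 h by a log2 difference of -1.26 ± 0.30 (adjusted p = 0.0306). Mapk8 did so by -0.52 ± 0.10 (adjusted p = 0.0155). Elk1, an ETS partner of SRF, differed by 0.28 ± 0.12 in wt liver at 2 h (adjusted p = 0.167). Median differences of the 18 lay between 0.00 and 0.23 in the 4 treated groups, where those over all genes were -0.06 to 0.02.

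Of 7 EGR cofactors and relatives tested, 1 fell in wt liver and 1 rose in KO liver at 2 h, and at 6 h 1 rose in wt liver and 2 rose and 1 fell in KO liver. Nab2, a corepressor that EGR1 itself induces, fell by 0.70 ± 0.19 in wt liver at 2 h (adjusted p = 0.0393). Crebbp, an acetyltransferase that EGR1 recruits, rose by 0.37 ± 0.13 in KO liver at 2 h (adjusted p = 0.0452) and at 6 h by 0.47 ± 0.13 in wt and by 0.39 ± 0.13 in KO liver (adjusted p = 0.0143 and 0.0349). Sp1, a zinc-finger factor of GC-rich promoters, rose by 0.49 ± 0.12 in KO liver at 6 h (adjusted p = 0.0083). Egr4, the remaining EGR family gene, fell by 0.69 ± 0.15 in KO liver at 6 h (adjusted p = 0.00451). In KO against wt liver at 6 h, 0 of the 7 were called in limma.

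Of 18 known EGR1 target genes tested, 3 rose and 2 fell in wt liver at 2 h, and 7 rose and 2 fell in KO liver. At 6 h 10 rose and 1 fell in wt liver (median 1.07 against -0.05 over all genes), and 8 rose and 0 fell in KO liver (median 0.59 against -0.05). Gadd45b, a stress sensor, rose by 4.37 ± 0.35 in wt liver at 2 h (adjusted p = 8.36e-05) and by 4.09 ± 0.35 in KO liver (adjusted p = 9.61e-05). The 6 h rises of Gadd45b were 3.74 in wt and 2.64 in KO liver (adjusted p = 4.23e-05 and 0.000316). Pdgfa, a growth factor for mesenchymal cells, rose by 1.46 ± 0.12 in wt and by 1.85 ± 0.12 in KO liver at 6 h (adjusted p = 2.1e-05 and 7.26e-06). Plaur, the urokinase receptor, rose by 2.93 ± 0.26 in wt and by 1.72 ± 0.26 in KO liver at 6 h (adjusted p = 2.77e-05 and 0.000613). The change from untreated liver to 6 h, tested as KO minus wt, was called for 0 of the 18. In that test 0.399% of all genes were called lower and 0.088% higher. In KO against wt liver at 6 h, 6 of the 18 were called lower and 1 higher. Of all genes 4.93% were called lower and 4.09% higher there. Thbs1, an activator of TGF-beta, was lower by a log2 difference of -3.59 ± 0.71 (adjusted p = 0.0166), Gadd45b by -1.77 ± 0.35 (adjusted p = 0.0169), Fgf2 by -1.25 ± 0.18 (adjusted p = 0.0052) and Ptgs2, the inducible cyclooxygenase, by -0.81 ± 0.13 (adjusted p = 0.00813). The 6 became 1 when KO 6 h replicate 2 was left out and 2 when wt 6 h replicate 1 was. The 3 risers of wt at 2 h became 1 when untreated wt replicate 1, or else wt 2 h replicate 2, was left out. The 7 of KO at 2 h became 3 with untreated KO replicate 1 left out and 4 with KO 2 h replicate 2 left out. The 8 of KO at 6 h became 5 without untreated KO replicate 1.

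Of 13 genes of the MYC, MAX and MLX network tested, 5 rose and 3 fell in wt liver at 6 h, and 4 rose and 3 fell in KO liver, where 22% and 19.1% of all genes were called lower. Mxd1, which competes with MYC for MAX, rose by 1.97 ± 0.23 in wt liver at 6 h (adjusted p = 0.00013) and by 1.59 ± 0.23 in KO liver at 2 h (adjusted p = 0.00101). Like Myc it stood below wt in KO liver at 6 h, by a log2 difference of -1.97 ± 0.23 (adjusted p = 0.00197). Mlxipl, the glucose-responsive factor ChREBP, fell by 1.85 ± 0.18 in wt and by 1.74 ± 0.18 in KO liver at 6 h (adjusted p = 4.64e-05 and 7.37e-05). The 5 risers of wt at 6 h became 2 or 3 without either untreated wt array or without wt 6 h replicate 1. Of 13 genes of MYC turnover, 2 rose and 1 fell in wt liver at 6 h, and 2 rose and 2 fell in KO liver, counts near or below the shares over all genes (16.5% higher and 22% lower in wt, 15.8% and 19.1% in KO liver). Ppp2r5a, a subunit of the phosphatase that destabilises MYC, fell by 0.98 ± 0.10 in wt and by 0.79 ± 0.10 in KO liver at 6 h (adjusted p = 6.08e-05 and 0.000242). Usp28, a deubiquitinase that stabilises MYC, was the 1 gene of this list called between genotypes at 6 h, lower in KO by a log2 difference of -0.48 ± 0.13 (adjusted p = 0.0449).

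MYC target genes, most of them for ribosome assembly and growth, rose at 6 h in both genotypes. Of 39 tested, 29 rose and 2 fell in wt liver (median 0.99 against -0.05 over all genes), and 31 rose and 2 fell in KO liver (median 1.06 against -0.05). At 2 h 3 rose and 1 fell in wt liver, near the 6.53% and 6.17% of all genes, and 12 rose and 4 fell in KO liver (10.6% and 20.8% of all genes). Nop56, a nucleolar protein of box C/D particles, rose by 2.40 ± 0.23 in KO liver at 6 h (adjusted p = 5.62e-05). Ddx21, a nucleolar helicase, rose by 1.70 ± 0.17 in wt and by 1.75 ± 0.17 in KO liver at 6 h (adjusted p = 6.08e-05 and 6.15e-05). Eif4e, the cap-binding protein, rose by 1.63 ± 0.16 in wt liver (adjusted p = 5.1e-05), and Ncl, nucleolin, rose by 1.15 ± 0.11 in KO liver (adjusted p = 4.95e-05). Between genotypes at 6 h, Cdk4, a cell cycle kinase, was the 1 target called of 39, higher in KO by 0.52 ± 0.10 (adjusted p = 0.0181). The 12 risers of KO at 2 h became 6 with the array labelled untreated KO replicate 2 left out and 5 with KO 2 h replicate 1 left out, and the 3 of wt at 2 h became 7 without untreated wt replicate 1 and 1 with untreated wt replicate 2, or with wt 2 h replicate 2, left out.

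Array by array, the level of Myc and the median of its targets did not follow the same order. Relative to the mean of untreated wt liver, Myc stood at 1.48 and 2.76 on the untreated KO arrays, where the median of the 39 targets stood at 0.12 and 0.06. At 2 h Myc stood at 1.62 and 1.72 in wt and at 4.01 and 4.14 in KO liver, and the target median at 0.15 and 0.29 in wt and at 0.33 and 0.20 in KO liver. At 6 h Myc stood at 4.72 and 4.43 in wt and at 3.40 and 2.05 in KO liver, and the target median at 0.95 and 1.07 in wt and at 1.22 and 1.11 in KO liver. The KO 2 h arrays thus had Myc within the range of the 6 h arrays and a target median below that of every 6 h array. These are differences from 1 shared baseline and are given as a description.

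**Figure D4:**
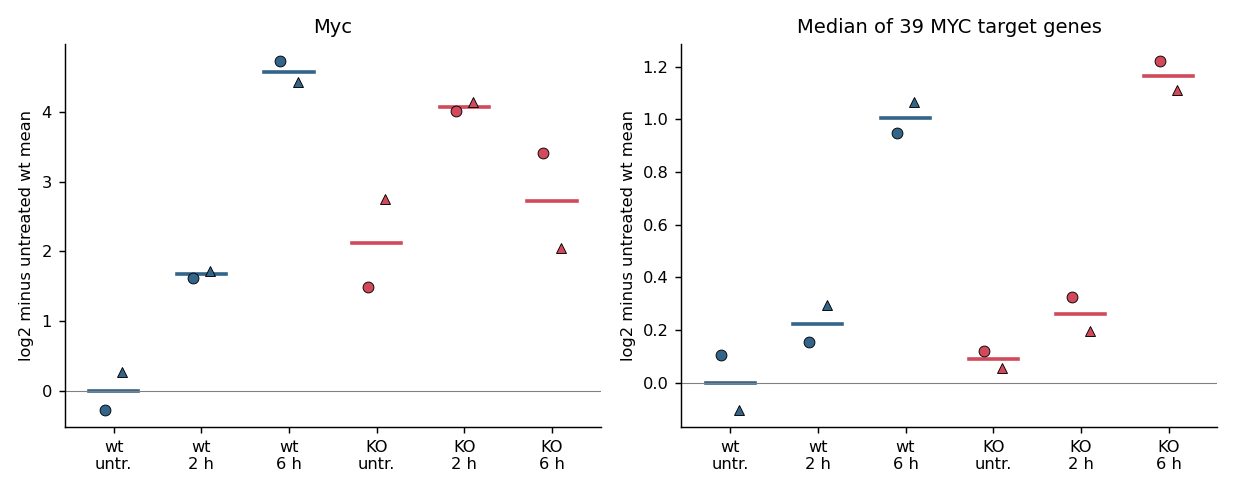
Log2 intensity of Myc (left) and median over 39 MYC target genes (right) on every array, each minus the mean of untreated wt liver, with circles for replicate 1, triangles for replicate 2 and bars for group means. The axes differ in scale: Myc reaches 4.72 and the target median 1.22, and the 4 arrays at 6 h hold the 4 highest target medians.

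Partners of the IER proteins included subunits of protein phosphatase 2A. Of 10 tested, 5 rose and 1 fell in each genotype at 6 h, where 16.5% and 22% of all genes were called higher and lower in wt and 15.8% and 19.1% in KO liver. Ppp2r2a, a regulatory subunit, rose by 1.63 ± 0.16 in wt and by 1.16 ± 0.16 in KO liver (adjusted p = 5.49e-05 and 0.000436). The catalytic subunit gene Ppp2ca rose by 0.65 ± 0.12 and by 0.83 ± 0.12 (adjusted p = 0.00147 and 0.000432). Atpif1, an inhibitor of the mitochondrial ATPase on which IER3 is known to act, fell by 0.92 ± 0.15 in wt and by 1.32 ± 0.15 in KO liver (adjusted p = 0.000802 and 0.000121). Heat shock genes, the targets of the factor that IER5 activates, rose in all 16 tested in both genotypes at 6 h (median 1.64 in wt and 1.35 in KO liver). At 2 h 5 of the 16 rose in wt liver, where Ier5 was not called, and 13 of 16 rose in KO liver, where Ier5 was called. Tested directly, the 2 h response differed between genotypes for 0 of the 16 in limma, where 0.0293% of all genes were called. Ier5 was not called in that test either (1.15 ± 0.47, adjusted p = 0.295). A link between Ier5 and the heat shock genes was not tested. Dnajb1, an HSP40 cochaperone, rose by 2.71 ± 0.44 in wt liver at 2 h and by 4.51 ± 0.44 in KO liver (adjusted p = 0.00319 and 0.000172). The 5 of wt at 2 h became 1 with untreated wt replicate 2 left out and 2 with either wt 2 h array left out. Called higher in KO than in wt liver at 2 h were 7 of 16, against 0.411% of all genes called higher and 1.6% lower. All of those calls ended without wt 2 h replicate 1. The count also fell without wt 2 h replicate 2 or KO 2 h replicate 1, and grew without KO 2 h replicate 2.

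Other immediate early genes of AP-1, the NR4A receptors, the Kruppel-like factors and further families gave a frame for the 7. The gene lists share members and are not independent. Gadd45b was also listed as an EGR1 target and Mcl1 as an IER partner. Hspd1 and Hspe1 were both MYC targets and heat shock genes, and Nab2 was in both EGR lists. Of 44 tested, 28 rose in wt liver at 2 h, and 34 rose and 1 fell in KO liver. Both of these counts of risers shrank with any 1 of their arrays left out. At 6 h 33 rose in wt liver, and 15 rose and 1 fell in KO liver, and the 15 became 25 without KO 6 h replicate 2. The change from untreated liver to 6 h, tested as KO minus wt, was called lower for 4 of the 44 and higher for 1. In that test 0.399% of all genes were called lower and 0.088% higher. Between genotypes at 6 h, 22 of the 44 were lower in KO and 2 higher. Of all genes 4.93% were called lower and 4.09% higher, and the median of the 44 was -1.24 against 0.01. Most of the calls lower in KO ended when wt 6 h replicate 1 was left out, and the count also shrank without KO 6 h replicate 2. Fos, the AP-1 subunit, was lower by a log2 difference of -4.26 ± 0.32 (adjusted p = 0.000162), and Jun, its partner, by -2.84 ± 0.38 (adjusted p = 0.0041). From 2 h to 6 h in KO liver 27 of the 44 fell and 2 rose. Of all genes 12.6% were called lower and 19.1% higher over that step, and Fos fell by 6.06 ± 0.32 (adjusted p = 9.88e-06).

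**Figure D5:**
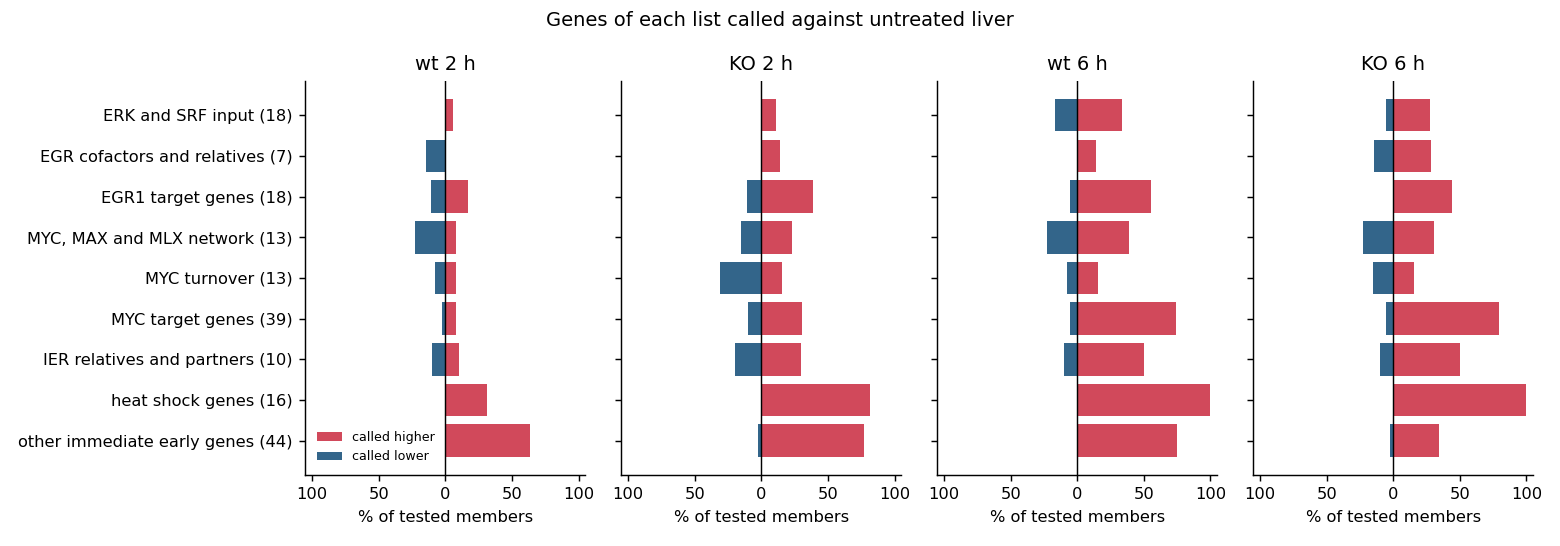
Share of the tested genes of each list (number in brackets) called higher (red, right of 0) or lower (blue, left of 0) against untreated liver, in wt and KO liver at 2 h and 6 h after APAP. Among other immediate early genes 33 of 44 were called higher in wt and 15 of 44 in KO liver at 6 h, while among MYC target genes the counts were 29 and 31 of 39.

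In their pattern over the 12 arrays, each gene centred on its own mean, the early genes fell near different neighbours. By the root mean square of the difference in log2 units, Egr1 lay closest to Jun (0.49), Btg2 (0.52) and Nr4a1 (0.78), and Egr2 to Ier2 (0.55), Junb (0.62) and Trib1 (0.73). Ier2 lay closest to Zfp36 (0.36), Trib1 (0.45) and Plk3 (0.48). Ier3 lay closest to Ifrd1 (0.33), Pvr (0.33) and Ppp1r15a (0.43), and Ier5 to Pim1 (0.34), Med13 (0.34) and Osmr (0.37). Myc lay closest to Csrnp1 (0.55), Socs3 (0.69) and Chac1 (0.78). These distances also depend on the spread of each gene, with an SD of 2.46 for Egr1, 1.64 for Myc and 1.08 for Ier5. Egr3 varied by an SD of 0.21 over the arrays, so its neighbours are other flat genes and are not described. Among the 7 themselves, Egr2 and Ier2 were the closest pair (0.55), followed by Ier3 and Ier5 (0.84).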

How the data were processed

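The authors deposited 1 table of normalized intensity values on a linear scale for 35556 probe sets on 12 arrays, made with Affymetrix Expression Console and RMA per the submitters' processing notes, with versions and genome build not given in the sources used here. Log2 of the deposited intensity was taken without a pseudocount. A gene was tested if a probe set with a single symbol had a mean log2 of at least 5, and of several such probe sets the brightest was used. Symbols came from the platform annotation, in which 21218 probe sets carried 1 symbol, 1881 several and 12457 none.

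Groups came from the sample titles, or the source name where a title was shortened. The 17052 genes entered limma 3.58.1 (R 4.3.3; lmFit, eBayes without a trend, 6 group means, 6 residual and 4.33 prior degrees of freedom). P-values were two-sided and Benjamini-Hochberg adjusted over all tested genes in each of 12 comparisons. The fit was tested on simulated data. Only 2 arrays per group limit the precision.

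The 7 genes, the gene lists and the markers were chosen with earlier results of these data known. From each list, up to 4 genes with the smallest p in a comparison could be named, and for likeness the 3 nearest tested genes, leaving out predicted genes and small RNAs. Motifs were searched on both strands of the RefSeq promoter table. Alternatives were each array left out in turn, other floors on the mean, quantile normalization, log2 after adding 16, probe sets of a gene averaged, eBayes with a trend, replicate numbers as a block, and fits that held only the groups compared. Counts of 5 of the lists without each array were added after seeing the data.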

Additional observations from a re-analysis of the deposited data

Results flagged for a closer look

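Tests of the difference in response or step between genotypes, pooled, called 6 of the 7 early genes. In the 6 h response test 0.399% of all genes were called lower and 0.088% higher. In the test of the step these shares were 2.06% and 4.97%. The 2 h response test called 0 of the 7 and 0.0293% of all genes. The change from untreated liver to 6 h was smaller in KO than in wt liver for Egr2 by a log2 difference of -2.0 ± 0.36, for Ier2 by -2.43 ± 0.32 and for Myc by -3.97 ± 0.62 (limma adjusted p = 0.0451, 0.0112 and 0.0262). The step from 2 h to 6 h was lower in KO than in wt liver for Egr1 by -3.65 ± 0.63, for Egr2 by -4.48 ± 0.36, for Ier2 by -3.25 ± 0.32, for Ier3 by -2.30 ± 0.59, for Ier5 by -2.60 ± 0.47 and for Myc by -4.25 ± 0.62 (adjusted p of 0.000802 to 0.0459). The 6 h response test and the step test use the same KO 6 h and wt 6 h arrays, so they are not independent of each other. Calls in both ended with single arrays left out, except the steps of Egr2 and Ier2. No group held the 4 arrays that a test for a single outlying array needs.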

How the results depend on the processing

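Over settings other than leaving out an array, 632 of 660 values of the early genes kept direction and side of the threshold, 17 lost a call, 7 gained one and 4 changed sign. Those 4, under quantile normalization, were Egr2 in untreated KO against wt liver (0.0115), Egr3 in the 2 h response difference (0.0776) and in wt from 2 h to 6 h (0.0504), and Ier5 in KO from 2 h to 6 h (-0.097), none of them called. Where each fit held only the groups compared, the early genes called became 1 in untreated KO against wt (Egr1, adjusted p = 0.041), 2 in KO against wt at 6 h, 2 and 1 in the response differences at 2 h and 6 h, and 3 in the difference of steps. The 2 h response difference had 1 call with log2 of the value plus 16 and 1 with a variance trend (Egr2, adjusted p = 0.0407 and 0.0456). With no filter, calls ended for Ier3 in KO against wt at 6 h (adjusted p = 0.0503) and in the difference of steps (0.0545) and for Egr2 in the 6 h response difference (0.0521), the last also after quantile normalization (0.0629).

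Replicate numbers were not used as pairs in the main fit. Deviations of same-numbered arrays correlated at -0.134 to 0.185 over 15 pairs of groups, 4 of them over 0.1. These values cannot tell whether same-numbered arrays shared a batch. The replicate block ended the calls of Egr2 in the 6 h response difference (adjusted p = 0.0663) and of Myc from 2 h to 6 h in KO (0.0538), added Egr3 in KO against wt at 6 h (0.0498) and changed no other call of the 7.

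Of all genes, KO against wt untreated (1 called) had 0 without a filter, 2 with the compared groups only and 0 with the replicate block. KO against wt at 2 h (342) had 197 after quantile normalization, 52 with the compared groups only and 550 with the block. With the compared groups only, KO against wt at 6 h (1538) had 142, KO from 2 h to 6 h (5401) had 3101, and the difference of steps (1198) 95, or 698 after quantile normalization. The 2 h response difference (5) had 1 at a mean of at least 7, 8 with log2 of the value plus 16, 11 with a trend and 23 with the compared groups only. Quantile normalization moved the share of calls that were higher from 33.9% to 44.7% for KO at 2 h, from 20.5% to 50.3% for KO against wt at 2 h, from 40% to 28.6% for the 2 h response difference and from 70.7% to 49.1% for the difference of steps.

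With 1 array left out, 28 values of the early genes changed sign, 64 lost a call, 8 gained one and 320 did neither. Early genes called ranged from 3 to 4 for wt at 2 h, 6 to 7 for wt at 6 h, 4 to 6 for KO at 2 h, 2 to 5 for KO at 6 h, 0 to 1 for KO against wt at 2 h, 3 to 6 at 6 h, 0 to 6 for the 6 h response difference, 3 to 6 for KO from 2 h to 6 h and 2 to 6 for the difference of steps. All genes called ranged from 800 to 1163, 4162 to 5307, 2935 to 4264 and 3845 to 5266 in the first 4 of these. They ranged from 0 to 3 for KO against wt untreated, 8 to 777 at 2 h, 172 to 1691 at 6 h, 2 to 33 and 18 to 286 for the response differences at 2 h and 6 h, 2460 to 3223 and 3709 to 4413 from 2 h to 6 h in wt and KO, and 32 to 1839 for the difference of steps. The values that changed sign were, over all arrays left out, Ier5 from -0.0369 to 0.22 in wt at 2 h, Ier2 from -0.17 to 0.51, Myc from -0.0669 to 1.28 in KO at 6 h, Egr2 from -0.0777 to 0.053, Egr3 from -0.081 to 0.13, Ier2 from -0.15 to 0.21, Ier5 from -0.0955 to 0.16 in untreated KO against wt, Egr3 from -0.0253 to 0.0656 in KO against wt at 2 h. Likewise, they were Egr3 from -0.11 to 0.10, Myc from -0.36 to 0.92 in the 2 h response difference, Egr2 from -0.0987 to 0.47, Egr3 from -0.19 to 0.16 from 2 h to 6 h in wt, Ier3 from -0.92 to 0.80, Ier5 from -0.67 to 0.72 from 2 h to 6 h in KO. The cause of these changes was not tested, beyond the fewer samples that enter each such fit.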
